A study of Mus musculus with 7 samples.

Results

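Heterotrimeric G proteins couple receptors of the membrane to enzymes and ion channels inside the cell, and the genes described here are those of their alpha, beta and gamma subunits together with the numbered Rgs genes, the regulators of G protein signalling. Genes were taken by symbol from the probe sets that the platform annotation pairs with a single gene, and the probe set with the highest mean over the 7 arrays stood for each gene. Of 19938 genes measured in this way, 52 belonged to the group: 15 G alpha, 5 G beta, 12 G gamma and 20 Rgs genes. Gnas and Rgs10 are not analysed here. A receptor that has bound its ligand makes the alpha subunit exchange GDP for GTP, and alpha and the beta gamma dimer then part and act on separate effectors. Rgs proteins speed the hydrolysis of GTP by alpha subunits of the Gi/o and Gq/11 families and so shorten the signal. In the bowel, neurons of the enteric nervous system use receptors coupled to Gi/o and Gq/11 to control motility and secretion, and muscle, pericytes and blood-derived cells carry their own sets of subunits and Rgs proteins.

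The study sorted cells of mouse bowel by fluorescence at embryonic day 17.5. All mice carried Wnt1-Cre, a recombinase under a promoter active in the neural crest, and R26R-EYFP, a reporter that the recombinase switches on, so both groups share their genotype. YFP-positive cells, labelled ENCDC (enteric neural crest-derived cells), gave 4 arrays, and YFP-negative cells, labelled non-ENCDC, gave 3. The gate therefore follows a lineage that holds enteric neurons, glia and their progenitors on one side, and on the other every remaining cell type of the bowel wall. The labels do not say whether replicates came from separate embryos or litters, so p-values measure the spread between these samples, which may be technical. Values are log2 levels after robust multi-array averaging (RMA), without detection calls, so that changes of dim genes are understated and no level can be called absent. Levels of different genes are not compared, since each probe set has its own response. In such sorted pools, fewer cells of a type and less RNA per cell cannot be told apart. Set against defining markers, all 7 neuron markers and all 5 glia and progenitor markers measured were higher in YFP-positive cells, and all 8 myeloid and all 6 fibroblast markers were lower. Epithelial markers, which lie outside the neural crest lineage, did not separate the groups: 0 of 8 were called by limma, 0 of 8 lay without overlap, and the list mean was 7.68 to 8.97 on YFP-positive and 8.47 to 8.51 on YFP-negative arrays. Over all genes, pairs of YFP-positive arrays correlated at 0.984 to 0.994 (Pearson) and pairs of YFP-negative arrays at 0.980 to 0.992. YFP-positive arrays 3 and 4 had higher mean levels of the marker lists of other cell types than arrays 1 and 2. The myeloid list was at 6.30 and 6.40 there against 5.49 and 5.66. Some lists rose in steps rather than in 2 sets of arrays, as did smooth muscle (8.20, 9.04, 9.66 and 10.11 on arrays 1 to 4). Results were also computed without arrays 3 and 4.

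In YFP-positive cells 13 of the 52 genes were higher and 10 were lower at a limma adjusted p under 0.05, adjusted over all 19938 genes. Over all genes, 8.39% were called higher and 9.11% lower. In either direction, 23 of 52 members were called against 17.5% of all genes. For 32 members every array of a group lay above every array of the other, against 26.9% of all genes. The median absolute log2 difference was 0.44 over the members and 0.14 over all genes, while the median signed difference was 0.07 and 0.01. The group therefore moved in both directions: its values ran from a log2 fold change of 4.33 for Gng3, a gamma subunit gene of neurons, down to -4.19 for Rgs1, an Rgs gene of lymphocytes and macrophages. Among the classes, 4 G alpha genes were higher and 2 lower, 1 G beta gene was higher and none lower, 3 G gamma genes were higher and 1 lower, and 5 Rgs genes were higher and 7 lower. Tested against a fold of 1.5 (limma treat) instead of against no change, 5 members were higher and 4 lower, against 2.35% and 2.80% of all genes in the same test. Of the members, 15 lay in the third of all genes with the lowest mean level, called low-level genes from here on, and 3 of these 15 were called (Rgs7, Rgs13 and Rgs18), where 5.21% of all low-level genes were.

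**Figure D1:**
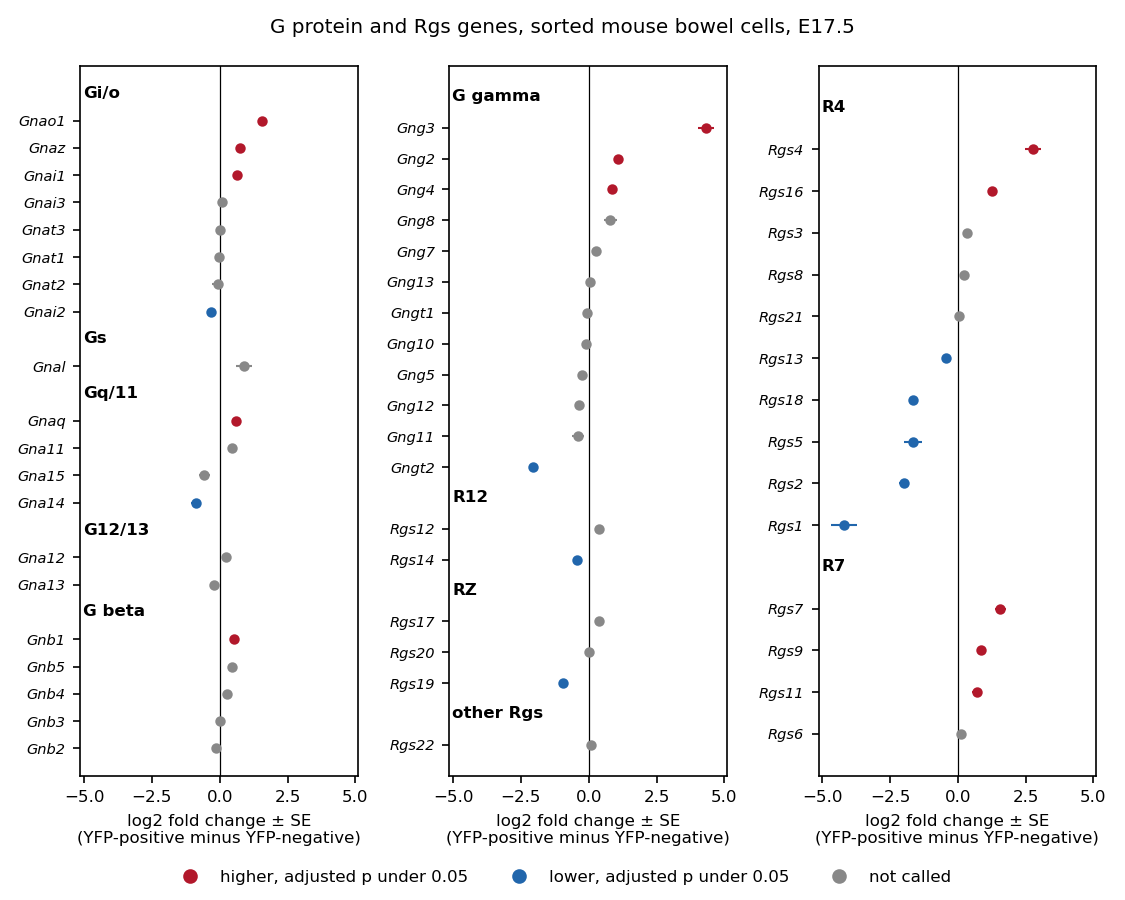
Log2 fold change of all 52 members, YFP-positive minus YFP-negative, with the standard error of the limma fit, grouped by subfamily and ordered within it; red marks genes called higher, blue genes called lower and grey genes not called. Gng3 (4.33) and Rgs4 (2.76) lie farthest to the right and Rgs1 (-4.19) farthest to the left, and the R7 genes lie at or above 0 while the R4 genes lie on both sides.

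Promoters are shown for 4 members on which the results turn: Gng3, with the largest increase; Rgs4 and Rgs5, neighbours on chromosome 1 with opposite changes; and Rgs2, the first gene of a run of Rgs genes that were mostly lower. Each is the 250 bases before the annotated start of transcription, read 5′ to 3′ on the strand of the gene from the RefSeq promoter table of build GRCm38.p6, which held 38 of the 52 members. Capitals mark matches on either strand to the letters TATAAA, known as a TATA box, or to GGGCGG, known as a GC box and here matched on the opposite strand. TGACGTCA, known as the cyclic AMP response element, was searched in the same way.
Gng3, chr19:8839247-8839496, minus strand: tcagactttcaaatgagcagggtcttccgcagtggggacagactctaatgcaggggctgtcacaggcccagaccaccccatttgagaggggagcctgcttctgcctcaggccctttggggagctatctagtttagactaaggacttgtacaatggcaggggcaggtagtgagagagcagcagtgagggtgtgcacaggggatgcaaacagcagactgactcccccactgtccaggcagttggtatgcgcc
Rgs4, chr1:169747643-169747892, minus strand: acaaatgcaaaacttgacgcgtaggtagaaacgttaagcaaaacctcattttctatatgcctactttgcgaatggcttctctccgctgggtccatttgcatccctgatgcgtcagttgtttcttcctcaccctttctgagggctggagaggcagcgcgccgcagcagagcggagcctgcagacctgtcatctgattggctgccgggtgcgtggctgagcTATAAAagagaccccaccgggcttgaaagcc
Rgs5, chr1:169655251-169655500, plus strand: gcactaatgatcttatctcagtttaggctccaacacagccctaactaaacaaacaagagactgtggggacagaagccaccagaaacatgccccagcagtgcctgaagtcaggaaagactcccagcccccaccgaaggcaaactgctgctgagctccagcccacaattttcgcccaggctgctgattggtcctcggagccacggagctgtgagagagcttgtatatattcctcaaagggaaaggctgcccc
Rgs2, chr1:144004150-144004399, minus strand: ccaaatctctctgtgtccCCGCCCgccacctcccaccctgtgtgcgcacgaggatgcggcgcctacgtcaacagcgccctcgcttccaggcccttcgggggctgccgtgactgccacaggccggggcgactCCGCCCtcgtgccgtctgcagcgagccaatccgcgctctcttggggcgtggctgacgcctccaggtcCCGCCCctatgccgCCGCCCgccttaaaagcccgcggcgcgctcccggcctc
Rgs4 held a TATA box beginning 31 bases before the start, and Rgs2 held 4 GC boxes. In Gng3 and Rgs5 these letters are not in the window. TATAAA was present for 13.2% of the 38 members and for 14.3% of the 27025 genes of the table, GGGCGG for 52.6% and 35.4%, and TGACGTCA for 0 of 38 members and 1.77% of all genes. The 11 higher members with an entry had a median of 17.5 CpG dinucleotides, the 5 lower ones 7, the 22 not called 10.25 and all genes 6. These are counts of letters in a fixed window and say nothing of binding.

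Among the alpha subunits of the Gi/o family, which lower cyclic AMP and release the beta gamma dimers that act on channels, 3 of 8 genes were higher and 1 was lower. Gnao1, the alpha subunit most abundant in neurons, read 9.41, 8.96, 8.75 and 8.81 on YFP-positive arrays 1 to 4 and 7.42, 7.43 and 7.38 on YFP-negative arrays 1 to 3. Every YFP-positive array lay above every YFP-negative one, and the YFP-negative arrays were nearly alike. The difference was 1.57 ± 0.16 on the log2 scale (SE, 4 against 3 arrays), 2.97-fold, with a limma adjusted p of 0.000708. Gnaz, a slowly hydrolysing alpha subunit known from neurons and platelets, was at 6.32 ± 0.29 (SD, n = 4) against 5.56 ± 0.13 (n = 3) and rose by 0.76. Gnai1, an alpha subunit that inhibits adenylyl cyclase, was at 7.61 ± 0.18 against 6.97 ± 0.28 and rose by 0.64. Both of these calls depended on single arrays. The limma adjusted p of Gnaz, 0.0175, became 0.0512 to 0.0771 when array 1 or 4 of the YFP-positive or array 1 or 2 of the YFP-negative group was left out. That of Gnai1, 0.0279, became 0.0599 to 0.108 on leaving out array 1, 2 or 3 of the YFP-positive or array 2 or 3 of the YFP-negative group, and 0.060 without YFP-positive arrays 3 and 4.

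Gnai2, the Gi alpha subunit of most tissues and of leukocytes in particular, went the other way by a small amount. It read 9.82, 9.92, 9.72 and 9.74 on the YFP-positive arrays and 10.17, 10.12 and 10.09 on the YFP-negative ones, without overlap. It fell by 0.33 ± 0.07, or 1.25-fold (limma adjusted p = 0.015). The call was lost when YFP-negative array 1 (0.0525) or 2 (0.0526) or both YFP-positive arrays 3 and 4 (0.0782) were left out, and after a repeat of quantile normalization, which left a difference of -0.18 (0.107). Gnai3, also found in most tissues, differed by 0.07 ± 0.12 and was not called. The transducin genes Gnat1 and Gnat2, of rods and cones, and Gnat3, the gustducin of taste and tuft cells, differed by -0.01, -0.08 and 0.02. All 3 are low-level genes, so their values may carry little signal. RMA gave Gnat1 the same value on 6 arrays and Gnat3 on 5. Gnal, the olfactory member of the Gs family, which raises cyclic AMP, was also a low-level gene and differed by 0.90 ± 0.30 with no overlap, but did not pass (limma adjusted p = 0.0845). The difference was 0.57 without YFP-negative array 2, which read 3.79 against 4.73 and 4.81, and Gnal passed with array weights (0.0464).

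The Gq/11 family, whose alpha subunits switch on phospholipase C beta, was split. Gnaq, its member in most cells, read 8.79, 8.53, 8.56 and 8.63 on YFP-positive arrays against 7.96, 8.02 and 8.05 on YFP-negative arrays. The spread within each group was small beside the gap between them, and the difference was 0.62 ± 0.08 (limma adjusted p = 0.00181). Gna14, a relative with a narrower distribution, read 5.18, 5.65, 5.34 and 5.35 against 6.53, 6.40 and 5.84. It fell by 0.88 ± 0.19, with YFP-negative array 3 nearest to the YFP-positive arrays. Its limma adjusted p of 0.0179 became 0.0506 to 0.0789 on leaving out array 1, 3 or 4 of the YFP-positive or array 1 or 2 of the YFP-negative group, and 0.135 without YFP-positive arrays 3 and 4. Gna11, which acts beside Gnaq in most tissues, was at 9.06 ± 0.24 (SD, n = 4) against 8.60 ± 0.04 (n = 3). Its groups did not overlap, but its limma adjusted p of 0.058 missed the threshold. It passed without YFP-positive array 2, the lowest of its group (0.00891), and after median centring (0.0399), a repeat of quantile normalization (0.0438) or removal of low-level genes (0.0418). Gna15, the alpha subunit of blood cells, differed by -0.57 ± 0.20 and was not called (limma adjusted p = 0.107). The difference was -0.32 without YFP-negative array 3, which read 5.32 against 4.45 and 4.70 on its group's other arrays. Gna12 and Gna13, the alpha subunits of the G12/13 family, differed by 0.22 ± 0.09 and -0.22 ± 0.10, and neither was called. Gna13 differed by -0.13 without YFP-positive array 1 and by -0.34 without YFP-positive arrays 3 and 4.

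Of the 5 beta subunit genes 1, Gnb1, was called (20%), against 17.5% of all genes. This gene of the common beta subunit read 10.55, 10.66, 10.82 and 10.66 on YFP-positive arrays and 10.21, 10.21 and 10.05 on YFP-negative arrays, with no overlap. It rose by 0.52 ± 0.08, or 1.43-fold (limma adjusted p = 0.00507). Fitted with the replicate number as a block, Gnb1 was not called (limma adjusted p = 0.0664). Gnb5, the divergent beta subunit that pairs with Rgs proteins of the R7 family in place of a gamma subunit, was at 6.52 ± 0.12 against 6.05 ± 0.26. Its groups also lay apart, and its limma adjusted p was 0.0521. It passed without YFP-negative array 1 (0.0418), after median centring (0.0387), after a repeat of quantile normalization (0.033) and with low-level genes left out (0.0376). Gnb4 differed by 0.28 ± 0.12, and Gnb2, another widespread beta subunit, by -0.14 ± 0.12 (-0.02 without YFP-negative array 1 and -0.08 without YFP-positive array 1). Gnb3, known from cones and taste cells, had means of 4.89 in both groups.

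The gamma subunits, small proteins that anchor the dimer to the membrane by a lipid tail, held the largest increase of all members. Gng3, a gamma subunit of neurons, read 10.64, 10.34, 9.80 and 9.55 on YFP-positive arrays 1 to 4 and 5.32, 5.79 and 6.15 on YFP-negative arrays 1 to 3. The lowest YFP-positive array lay well above the highest YFP-negative one, and arrays 3 and 4 were the lowest of their group. The difference was 4.33 ± 0.30, a 20.1-fold higher level (limma adjusted p = 0.000155). Gng2, the gamma subunit of many brain dimers, was at 9.01, 9.18, 8.63 and 8.76 against 7.76, 7.70 and 7.996 and rose by 1.08 ± 0.15 (limma adjusted p = 0.00268). Gng4, likewise known from brain, was at 7.41, 7.03, 7.06 and 6.76 against 6.27, 6.22 and 6.13 and rose by 0.86 ± 0.14 (limma adjusted p = 0.00653). None of these 3 genes overlapped between groups. Gngt2, the gamma subunit of cones that blood-derived cells also express, went the opposite way, with 5.47, 5.66, 5.48 and 5.29 against 7.75, 7.52 and 7.31. It was 4.14-fold lower (-2.05 ± 0.13, limma adjusted p = 0.000105).

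The other 8 gamma genes were not called. Gng8 (0.79 ± 0.24) and Gng7 (0.27 ± 0.09), both known from neurons, lay without overlap above the YFP-negative arrays, with limma adjusted p-values of 0.0637 and 0.0784, and passed after a repeat of quantile normalization (0.0394 and 0.0435); Gng8 also passed with low-level genes left out (0.0422). The widely expressed genes had small negative differences: Gng12 -0.35 ± 0.13, Gng5 -0.26 ± 0.10 and Gng10 -0.09 ± 0.14. That of Gng5 was -0.13 after a repeat of quantile normalization and -0.16 without YFP-positive arrays 3 and 4. Gng11, a farnesylated gamma subunit of many non-neural cells, differed by -0.40 ± 0.21, with YFP-negative array 3 at 7.43 amid the YFP-positive range of 7.36 to 7.80. Without that array the difference was -0.64 (limma adjusted p = 0.0284), and it was -0.26 without YFP-negative array 2 and -0.25 without YFP-positive arrays 3 and 4. Gng13, of taste and olfactory cells, and Gngt1, of rods, differed by 0.03 and -0.08.

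Among Rgs genes, the R4 family, short proteins made of little beyond the Rgs domain, held 2 of 10 genes higher and 5 lower. Rgs4, known from neurons, read 8.23, 7.54, 7.71 and 7.04 on YFP-positive arrays and 5.19, 4.95 and 4.47 on YFP-negative arrays. The groups lay far apart, with array 1 the highest of the YFP-positive arrays and array 4 the lowest. Rgs4 was 6.78-fold higher (2.76 ± 0.29, limma adjusted p = 0.000876). Rgs16, a member induced by signalling in many cell types, was at 8.13, 7.86, 7.87 and 7.79 against 6.53, 6.81 and 6.61. Arrays within each group were close, and it rose by 1.26 ± 0.11 (limma adjusted p = 0.000322).

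The 5 lower R4 genes were Rgs1, Rgs2, Rgs5, Rgs18 and Rgs13. Rgs1 read 4.005, 5.04, 5.50 and 6.18 on YFP-positive arrays and 9.14, 9.18 and 9.79 on YFP-negative arrays. The YFP-positive arrays differed widely among themselves, yet all lay below the YFP-negative ones. Rgs1 was 18.2-fold lower (-4.19 ± 0.48, limma adjusted p = 0.00128), and the difference was -4.85 without YFP-positive arrays 3 and 4. Rgs2, a regulator of Gq signalling in smooth muscle and many other cells, read 7.19, 7.40, 7.63 and 8.01 against 9.61, 9.46 and 9.58. It was 3.98-fold lower (-1.99 ± 0.18, limma adjusted p = 0.000496), with the YFP-negative arrays close together. Rgs5, a marker of pericytes, read 7.06, 7.12, 7.93 and 7.99 against 9.36, 9.52 and 8.66. Here YFP-positive arrays 3 and 4 were the higher ones and YFP-negative array 3 was the lowest of its group. Rgs5 fell by 1.65 ± 0.32 (limma adjusted p = 0.0116), and its call was lost without YFP-negative array 1 (0.0518) or 2 (0.0562).

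Rgs18, of platelets and other blood-derived cells, was dim, at 3.18, 3.19, 2.96 and 3.03 against 4.60, 4.66 and 4.96. It fell by 1.65 ± 0.11 (limma adjusted p = 0.00012), with no overlap. Rgs13, known from mast and B cells, was dimmer still, at 2.69 ± 0.08 against 3.13 ± 0.03, and fell by 0.45 ± 0.06 (limma adjusted p = 0.00299). Rgs3 (0.33 ± 0.12), Rgs8 (0.23 ± 0.10), a brain Rgs gene, and Rgs21 (0.03 ± 0.08), of taste cells, were not called. Rgs3 passed without YFP-positive array 1 (0.0345), and Rgs8 differed by 0.13 without YFP-negative array 2. Rgs3 was also the only member with several probe sets of its own, and the dimmer one, not used, differed by -0.08; the mean of both differed by 0.12.

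The R7 family, whose proteins bind Gnb5 through a domain like a gamma subunit and act on Gi/o alpha subunits in neurons, had 3 of 4 genes higher and none lower. Rgs7 read 5.69, 5.60, 5.05 and 5.03 on YFP-positive arrays and 3.94, 3.83 and 3.57 on YFP-negative arrays. Arrays 1 and 2 were above arrays 3 and 4, and all were above the YFP-negative range. It was 2.96-fold higher (1.56 ± 0.20, limma adjusted p = 0.00196). Rgs9, known from striatum and retina, was at 6.67, 6.51, 6.28 and 6.40 against 5.67, 5.71 and 5.48 and rose by 0.85 ± 0.11 (limma adjusted p = 0.00197). Rgs11 was at 5.63 ± 0.17 (SD, n = 4) against 4.92 ± 0.35 (n = 3) and rose by 0.71 ± 0.17. Its limma adjusted p of 0.0314 became 0.0669 to 0.0878 when array 1, 2 or 3 of the YFP-positive or array 1 of the YFP-negative group was left out, and 0.11 without YFP-positive arrays 3 and 4. Rgs6, a low-level gene, lay without overlap at 4.26 ± 0.03 against 4.13 ± 0.08 and was not called (limma adjusted p = 0.20).

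The remaining families were small. Of the R12 genes, which carry a further motif that binds inactive Gi alpha, Rgs14 fell by 0.43 ± 0.08, from 5.99 ± 0.08 in YFP-negative to 5.56 ± 0.12 in YFP-positive cells (limma adjusted p = 0.0102). Its adjusted p was 0.0511 without YFP-positive arrays 3 and 4. Rgs12 lay at 6.12 ± 0.14 against 5.75 ± 0.19, without overlap, and was not called (limma adjusted p = 0.0733). It passed without YFP-negative array 3 (0.0303). Of the RZ genes, which carry a cysteine string, Rgs19, also called GAIP, read 6.999, 6.68, 6.56 and 6.64 against 7.87, 7.69 and 7.48. It was 1.95-fold lower (-0.96 ± 0.13, limma adjusted p = 0.00303), with no overlap. Rgs17 differed by 0.39 ± 0.14 (0.24 without YFP-negative array 3) and Rgs20 by 0.02 ± 0.07, and neither was called. Rgs22, a large Rgs gene of testis, differed by 0.07 ± 0.07.

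**Figure D2:**
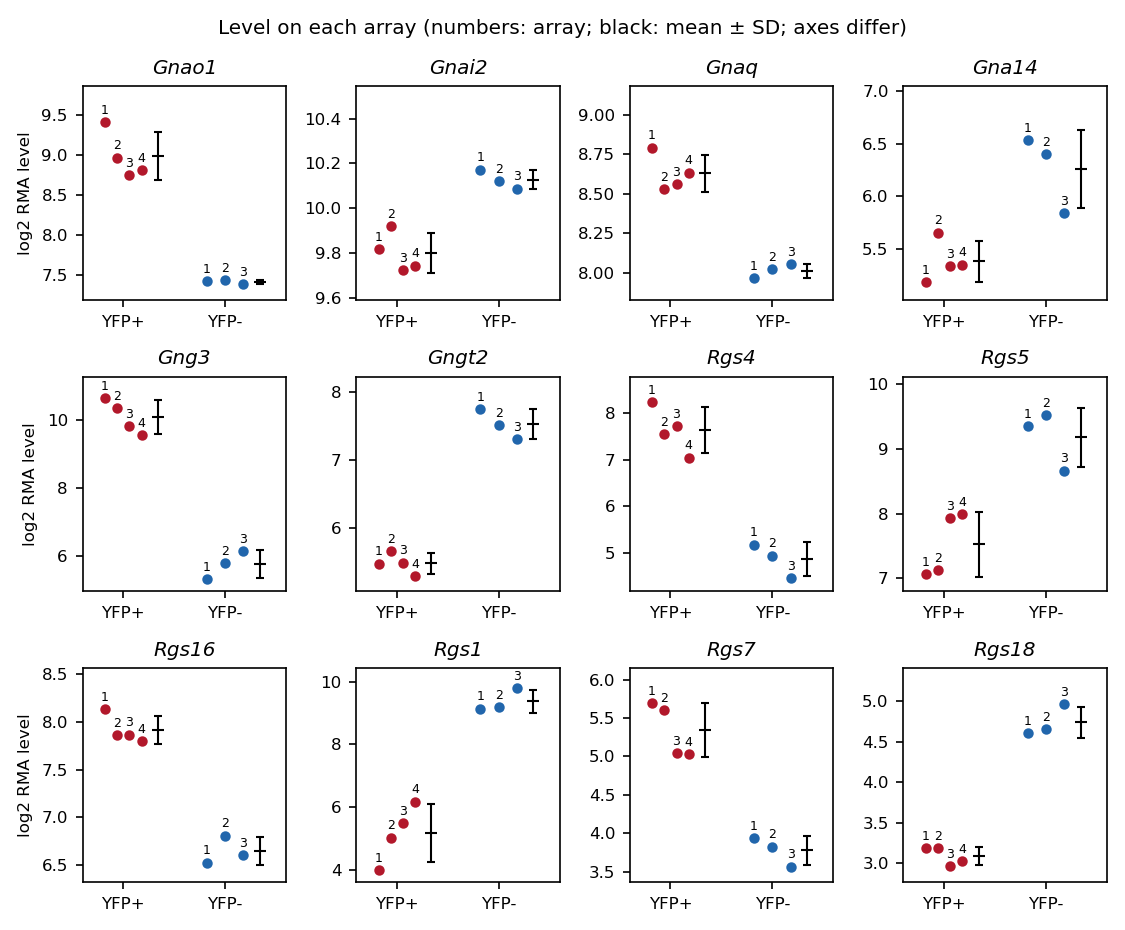
Log2 RMA level of 12 members on each array (red: YFP-positive arrays 1 to 4; blue: YFP-negative arrays 1 to 3), with the mean and SD of each group in black; each panel has its own axis, which does not start at 0. In every panel the groups lie apart, by 4.33 for Gng3 and by 0.33 for Gnai2, and Rgs1 shows the widest spread among YFP-positive arrays.

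Whether paralogs changed by unlike amounts was tested on the difference between 2 genes of a subfamily on the same array, which is free of any shift common to an array. Each member was set against a widely expressed member of its subfamily (Rgs6 for R7), and the 35 ways of choosing 4 of 7 arrays gave a two-sided exact permutation p, of which 0.0286 is the smallest possible. Of 41 such comparisons 27 reached it, where the share of all genes ran from 26.5% to 94.9% by reference. A reference that itself changed makes nearly every gene differ from it, so each count is read against all other genes set against the same reference. Against Gnai2, 5 of 7 Gi/o genes reached the smallest p, and 48.5% of all genes did. The change was 1.90 for Gnao1, 1.09 for Gnaz and 0.97 for Gnai1. The other 2 were Gnat1 (0.32) and Gnat3 (0.35), both low-level genes. Their changes are close in size to the fall of 0.33 in Gnai2 itself. Against Gnaq, 2 of 3 genes reached it (all genes 72.7%), with -1.49 for Gna14 and -1.19 for Gna15, while Gna11 overlapped (-0.16, exact permutation p = 0.143). Against Gnb1 it was 2 of 4 (all genes 62.6%), with -0.65 for Gnb2 and -0.52 for Gnb3. Gnb3 is a low-level gene with means of 4.89 in both groups. Its change is close in size to the rise of 0.52 in Gnb1 itself. Gnb5 did not part from Gnb1 beyond the spread (-0.05, exact permutation p = 0.629).

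Against Gng5, a gamma gene that was not called, 6 of 11 gamma genes reached the smallest p, where 29.2% of all genes did. Besides the 4 called genes these were Gng8 (1.05) and Gng7 (0.53). Against Rgs6, also not called, Rgs7 (1.43) and Rgs9 (0.72) reached it and Rgs11 did not (0.58, exact permutation p = 0.0571), where 32.2% of all genes did. Against Rgs2, 7 of 9 R4 genes reached it, where 94.9% of all genes did. The 2 that did not were Rgs5 (0.34) and Rgs18 (0.34), with exact permutation p-values of 0.343 and 0.314. Rgs1 fell further than Rgs2, by 2.20 on the log2 scale. Rgs14 parted from Rgs12 by -0.80 (all genes 38.1%), and Rgs17 and Rgs20 parted from Rgs19 by 1.35 and 0.98 (all genes 76.7%). Rgs20 is a low-level gene that itself differed by 0.02. Its change is close in size to the fall of 0.96 in Rgs19. Gna13 and Gna12 differed in their change by -0.43, without overlap but with an exact permutation p of 0.0571 (all genes 26.5%).

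Many members lie side by side in the genome. By the order of protein-coding genes in the GRCm38.p6 RefSeq table, 21 members formed 12 pairs of direct neighbours, a comparison chosen after the values were seen. A run of 5 R4 genes on chromosome 1 held Rgs2, Rgs13, Rgs1, Rgs21 and Rgs18 in this order. All but Rgs21, whose probe set gave the same value on 5 arrays, were lower in YFP-positive cells, by 0.45 (Rgs13) to 4.19 (Rgs1) on the log2 scale. Elsewhere on chromosome 1, Rgs5 and Rgs4 are neighbours whose promoters are printed above, and Rgs5 was lower and Rgs4 higher. On the same array, Rgs5 minus Rgs4 was on average -0.11 in YFP-positive and 4.31 in YFP-negative cells, a change of -4.42 (exact permutation p = 0.0286). Rgs8, not called, lies beside Rgs16, which was higher. On chromosome 19, Gnaq was higher and its neighbour Gna14 lower, with a change of 1.49 in their difference (exact permutation p = 0.0286). Gna15 (-0.57) and Gna11 (0.45) on chromosome 10 had opposite signs, and neither was called alone. Their difference changed by -1.02, also at the smallest exact permutation p of 0.0286. In all, 10 of the 12 neighbour pairs reached that p, and the exceptions were Gnat2 with Gnai3 and Gngt1 with Gng11. Of all 16915 measured pairs of neighbouring protein-coding genes 28.8% reached it. Pairs within the run share genes and are not independent, and a called gene beside one of little change is enough to set a pair apart.

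**Figure D3:**
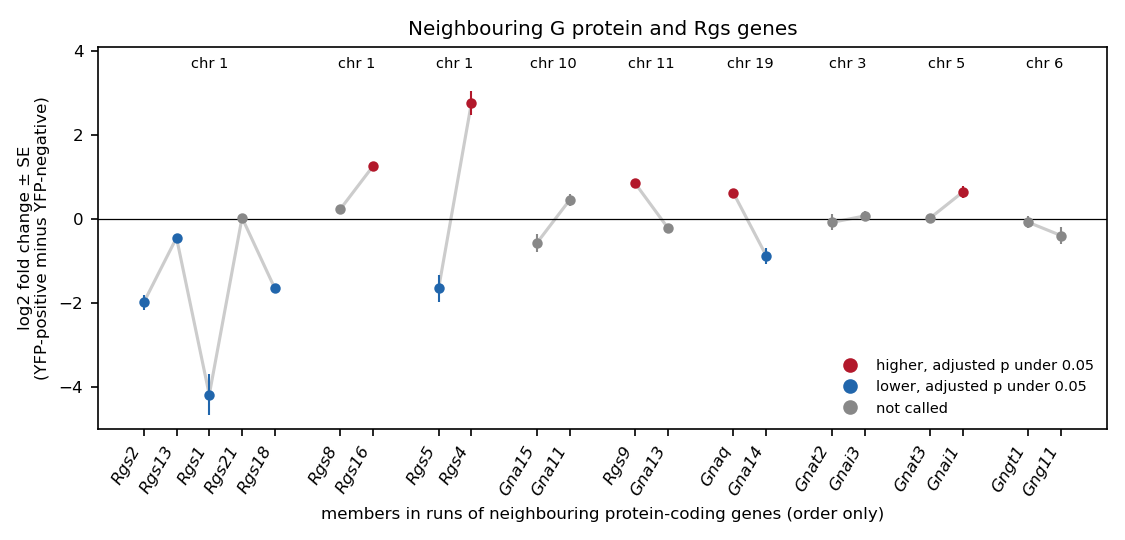
Log2 fold change, YFP-positive minus YFP-negative, with the standard error, of the 21 members that lie next to another member, in genomic order and joined by grey lines; distances are not drawn. In the run from Rgs2 to Rgs18, all but Rgs21 (0.03) lie below 0, whereas Rgs5 (-1.65) and Rgs4 (2.76) and, on chromosome 19, Gnaq (0.62) and Gna14 (-0.88) point in opposite directions.

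Several marker lists of the cell types that the gates could hold moved with these genes, and others did not. The mean level of 7 neuron markers was 8.81 to 9.36 on YFP-positive arrays and 5.02 to 5.40 on YFP-negative arrays, and that of 5 glia and progenitor markers was 8.57 to 8.92 and 5.54 to 5.86. Beside the lower Rgs1, Gngt2, Rgs18, Rgs19 and Gnai2, the 8 myeloid markers averaged 5.49 to 6.40 and 9.22 to 9.42, and the 5 lymphoid markers 4.68 to 4.97 and 6.55 to 7.43. Beside Rgs13, the 7 mast cell markers averaged 3.99 to 4.18 and 5.81 to 6.35, with 5 of 7 called lower. Beside Rgs18, 1 of 4 platelet markers, Pf4, was called lower (list mean 4.96 to 5.27 and 5.92 to 6.55). Beside Rgs5, all 5 pericyte markers were lower, with means of 5.66, 5.83, 6.40 and 6.38 on YFP-positive arrays and of 7.17 to 7.56 on YFP-negative arrays. Beside Rgs2, smooth muscle markers averaged 8.20 to 10.11 and 10.33 to 10.87, with 2 of 6 called lower. Fibroblast markers averaged 7.58 to 8.74 and 9.63 to 10.31, with 6 of 6 called lower. Of the lists that moved little or in both directions, endothelium had 1 of 7 markers higher (Kdr) and 2 lower (Pecam1 and Emcn), mesothelium had 1 of 4 lower, and epithelium had none called. Of 3 markers of interstitial cells of Cajal, Kit and Ano1 were called lower and Etv1 higher. Their list mean was 6.91 to 7.66 on YFP-positive and 8.08 to 8.26 on YFP-negative arrays. The part of these cell types in the results was not tested.

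Within the YFP-positive arrays, arrays 3 and 4 had lower levels of Gng3 and Rgs7 and higher levels of Rgs1, Rgs2 and Rgs5 than arrays 1 and 2. Gnao1, Gnai1, Gng2 and Rgs9, also called higher, were likewise lower on both arrays 3 and 4 than on arrays 1 and 2. Gnao1, for example, read 8.75 and 8.81 there against 9.41 and 8.96. Other called members did not divide the arrays in this way. Rgs4 read 7.71 on array 3 and 7.54 on array 2. Rgs18, Rgs19 and Gnai2, named beside the myeloid list above, were lower on arrays 3 and 4. Gngt2 was not higher there (5.48 and 5.29 against 5.47 and 5.66). On arrays 3 and 4 the neuron list mean was 9.09 and 8.81 against 9.35 and 9.36, and the epithelial list mean was 8.70 and 8.97 against 7.68 and 8.05. Without arrays 3 and 4, 11 members were higher and 7 lower, against 6.48% and 6.98% of all genes in that fit. Gng3 then differed by 4.74 and Rgs7 by 1.87, and Rgs2 by -2.25 and Rgs5 by -2.09. Tuft cell markers, the bowel source of Gnat3, Rgs21 and Gng13, averaged 5.23 to 5.39 and 5.53 to 5.68, with Trpm5 alone called lower, and none of these 3 members was called.

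**Figure D4:**
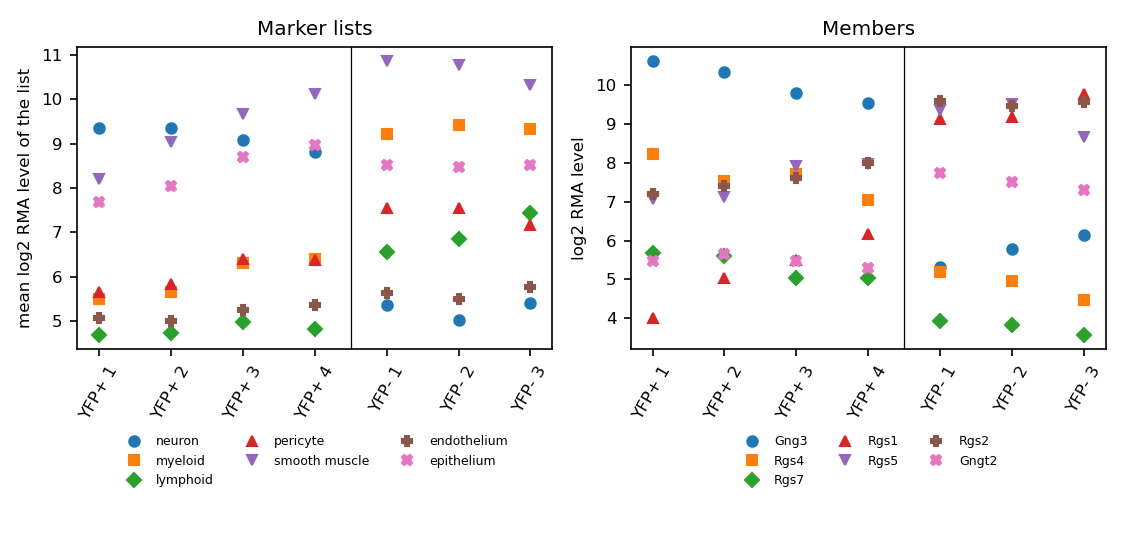
Left, mean log2 RMA level of 7 marker lists on each array; right, level of 7 members on the same arrays (YFP-positive arrays 1 to 4, then YFP-negative arrays 1 to 3); points of different genes or lists are not comparable in height. The neuron list, Gng3, Rgs4 and Rgs7 are high on the left of each panel and the myeloid list, Rgs1 and Gngt2 on the right, while the epithelial list runs from 7.68 to 8.97 within the YFP-positive arrays alone.

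Other genes of the pathway were taken from 8 lists of partners and effectors. Of 54 genes measured, 7 were higher (12.96%) and 8 lower (14.8%), against 8.39% and 9.11% of all genes, and their median absolute difference was 0.18. The phospholipase C beta genes, effectors of Gq/11 and of beta gamma dimers, were the list with the largest share of calls: of 4 genes 2 were higher and 1 lower. Plcb1, the isoform best known from brain, read 7.64, 7.27, 7.25 and 7.40 on YFP-positive arrays against 5.62, 6.03 and 6.01 and rose by 1.51 ± 0.14 (limma adjusted p = 0.000492). Plcb4 read 7.94, 8.10, 7.81 and 7.85 against 6.89, 6.90 and 6.95 and rose by 1.02 ± 0.08 (limma adjusted p = 0.00025). Plcb2, the isoform of blood cells and taste cells, read 4.95, 4.69, 4.93 and 5.13 against 6.50, 6.66 and 7.14 and fell by 1.84 ± 0.17 (limma adjusted p = 0.0005). Plcb3, of many tissues, differed by 0.02 ± 0.17.

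Of 7 channels regulated by beta gamma dimers, the calcium channel genes Cacna1b (1.76 ± 0.13, N type) and Cacna1a (0.53 ± 0.09, P/Q type) were higher and none was lower. Cacna1a was not called without YFP-positive arrays 3 and 4 (limma adjusted p = 0.0677). The inwardly rectifying potassium channel genes Kcnj3, Kcnj5, Kcnj6 and Kcnj9 differed by 0.32, 0.08, 0.08 and 0.04 and were not called. Of 3 genes for subunits of PI3K gamma, a lipid kinase acted on by beta gamma dimers, the catalytic subunit gene Pik3cg fell by 2.24 ± 0.26 and its adaptor Pik3r5 by 0.98 ± 0.11, both genes of leukocytes, and none rose. Of 9 membrane adenylyl cyclases, Adcy7, an isoform of blood cells, fell by 1.44 ± 0.16. Adcy6 rose by 0.35 ± 0.10, a call (limma adjusted p = 0.0483) that was lost on leaving out YFP-positive array 2 or 3 or any YFP-negative array (0.0856 to 0.145), both YFP-positive arrays 3 and 4 (0.0716) and with the trend option of eBayes (0.0538).

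Of 9 receptor kinases and arrestins, Grk3, a kinase recruited by beta gamma dimers, rose by 1.13 ± 0.13 and Arrb2, an arrestin, fell by 0.94 ± 0.16. Of 12 alpha subunit chaperones and regulators, Ccdc88a, which codes for girdin, rose by 0.49 ± 0.09. Gpsm3, a binder of inactive Gi alpha in leukocytes, fell by 1.36 ± 0.17, and Rasd2 fell by 0.34 ± 0.08. Of 4 anchors and partners of the R7 complex, Rgs7bp, which holds R7 proteins at the membrane in neurons, fell by 0.44 ± 0.11 while Rgs7, Rgs9 and Rgs11 rose. Rgs7bp was dim, at 4.33, 4.35, 4.65 and 4.68 against 5.02, 4.99 and 4.82. The calls of Rasd2 and Rgs7bp depended on single arrays. The limma adjusted p of Rasd2 was 0.0603 to 0.0783 when any 1 YFP-positive array, or YFP-negative array 1 or 2, was left out, 0.144 without YFP-positive arrays 3 and 4 and 0.0605 after a repeat of quantile normalization, and that of Rgs7bp was 0.0852 to 0.126 when array 1 or 2 of either group was left out. None of 6 genes of prenylation and CAAX processing, which attach the lipid tail of gamma subunits or process the end that carries it, was called. Their differences were -0.19 to 0.22. Over all genes 17.5% were called by limma, and 6 genes are too few to set the list apart.

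**Figure D5:**
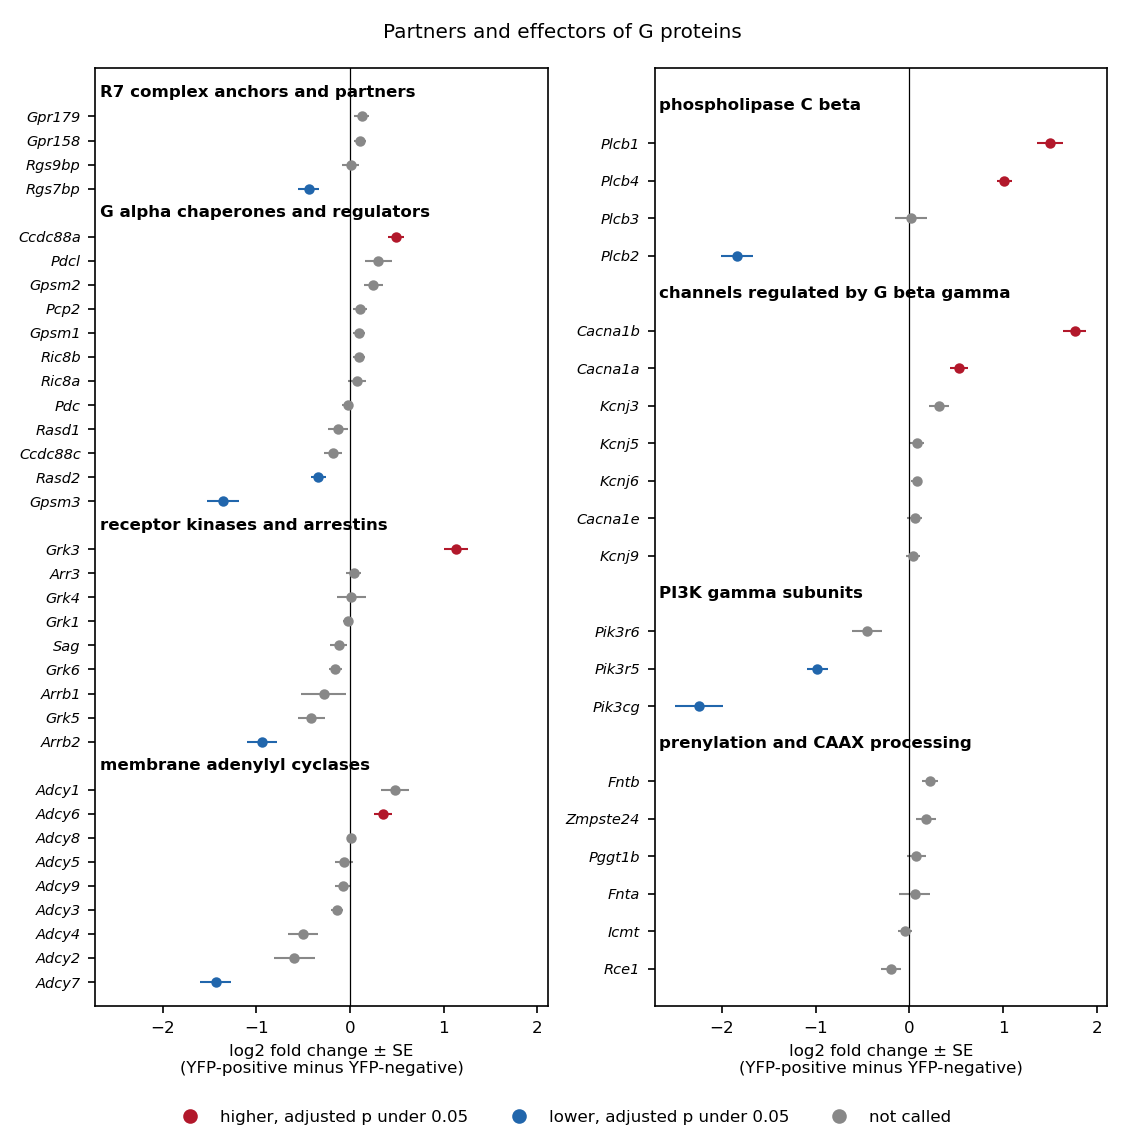
Log2 fold change, YFP-positive minus YFP-negative, with the standard error of the limma fit, of 54 partners and effectors in 8 lists; red marks genes called higher, blue genes called lower and grey genes not called. Cacna1b (1.76) and Plcb1 (1.51) lie farthest to the right, Pik3cg (-2.24) and Plcb2 (-1.84) farthest to the left, and no gene of the prenylation list is called.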

How the data were processed

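The authors deposited log2 RMA values for each probe set of an Affymetrix array; the submitters' processing notes name Expression Console and RMA without versions. Per the labels' protocols, Trizol RNA was amplified with a NuGEN kit for picogram inputs, which can compress differences. Of 35556 probe sets, 21789 had 1 gene symbol. The array build was not stated; promoters and gene order come from RefSeq, GRCm38.p6.

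Groups were compared with limma 3.58.1 (lmFit, eBayes) in R 4.3.3, with Benjamini-Hochberg adjustment over 19938 genes; tables and figures used Python 3.11.15. Fold changes carry the standard error of the moderated fit. The fit was tested on simulated data. Paralog comparisons were planned as a limma fit on differences from the reference; since all genes then share the noise of the reference, exact permutation over arrays replaced it. Members and lists were chosen with earlier results of these data known, and all members may be named; of pathway lists, up to 4 called genes in each direction, and other values in full lists. Alternatives were eBayes trend and robust, centring, repeated quantile normalization, a filter on low levels, other probe set rules, array weights, treat, a replicate block and arrays left out. A few pathway genes are not reported here. The number of arrays limits the precision.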

Additional observations from a re-analysis of the deposited data

Results flagged for a closer look

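For 3 of the 52 members, 1 YFP-positive array lay far from the other 3 by Dixon's gap ratio, which chance gives in about 1 in 20 groups. Gnat1 read 3.75 on array 4 and 3.79 on the others, and Rgs20 read 4.44 on array 4 and 4.35 on the others; both probe sets are dim, and RMA gave the remaining 3 arrays identical values. Gnb4 read 7.43 on array 2 and 7.08 to 7.10 on the others. None of the 3 genes was called by limma.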

How the results depend on the processing

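With 7 arrays and no detection calls, small changes and changes of dim genes are the least certain. Against a fold of 1.5 (treat), 5 members were higher and 4 lower, and 4 pathway genes were higher and 4 lower (2.35% and 2.80% of all genes). With the replicate block, 11 members were higher and 6 lower, and 5 pathway genes were higher and 5 lower (1245 and 1264 of all 19938 genes). The 7 called members lost with the block were Gnai2, Gnaz, Gna14, Gnb1, Rgs5, Rgs11 and Rgs14, and Gng8 was gained. The labels do not say that the numbers pair the samples. The deviations of same-numbered arrays correlated at 0.0084, -0.086 and 0.038, and no YFP-positive array correlated best with its own number. Leaving out single arrays gave 11 to 13 members higher, 7 to 11 lower, 6 to 7 pathway genes higher and 6 to 8 lower. Of all 19938 genes, these fits called 1202 to 1452 higher and 1166 to 1890 lower, against 1672 and 1817 with all arrays. The other settings gave 11 to 18 members higher and 7 to 12 lower, and 5 to 8 pathway genes higher and 7 to 10 lower. Over all genes they called 1292 to 2028 higher and 1392 to 2275 lower. The 18 and 12 came with array weights, where 1901 of all 19938 genes were higher and 2275 lower. With array weights 7 further members passed (Gnal, Gna11, Gnb5, Gng5, Gng11, Rgs3 and Rgs12). No called member changed sign under any setting; 10 of the 29 not called did, all with a main log2 difference of at most 0.09. Without low-level genes fewer paralog pairs remained and 17 reached the smallest p. Centring, repeated normalization and the other probe set rules left that count at 27. With an array left out the exact test cannot pass 0.05, and 39 to 41 of 41 differences kept their direction. The eBayes options, weights, treat and the block do not apply to that test and were not run for it.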

Other observations

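Among the 13 higher members, YFP-positive array 1 had the highest level of the 4 for 9 (69.2%), against 49.9% of all 1672 higher genes. Among the 10 lower members, array 4 was the highest for 3 (30.0%) and array 2 for 4 (40.0%), where all 1817 lower genes had 47.7% on array 4 and 11.8% on array 2. Gngt2, Gna14, Gnai2 and Rgs18 were highest on array 2, and Rgs1, Rgs2 and Rgs5 on array 4.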
